A study of Mus musculus with 15 samples.

Results

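The genes described here encode the acid-generating proton pump, the hydrolases and the membrane proteins of the lysosome: 15 subunits and accessory proteins of the vacuolar ATPase (V-ATPase), 27 soluble or membrane-bound proteins of breakdown and lipid export, and 5 proteins of the lysosomal membrane, with the cathepsins left out. They were chosen by gene name, as all non-control probes annotated to 1 of 47 listed genes, which gave 61 of the 55681 probes on the array, and 47 of its 46287 genes and unnamed probes. The list was selected on knowledge of these same arrays, and which of their values led to it is not recorded, so every count over the 47 genes below is a description of them and not independent evidence of a direction.

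The study exposed primary mouse lung cells for 24 h to 1 mM beta-aminopropionitrile (BAPN), an irreversible inhibitor of the lysyl oxidases that cross-link collagen and elastin, and asked whether the inhibitor itself alters gene expression. The groups were alveolar epithelial type II (ATII) cells with BAPN (4 arrays, numbered 1, 3, 4 and 5 here, the last being a replacement array that carries no number of its own), ATII cells with vehicle (4 arrays), lung fibroblasts with BAPN (3 arrays, numbered 1, 2 and 4) and lung fibroblasts with vehicle (4 arrays). Vehicle was 1x phosphate-buffered saline. The labels name no strain, sex or age of the mice. Nothing in them ties a replicate to a mouse or culture of its own, so p-values reflect the spread between these arrays alone and that spread may be technical. Fibroblasts were used after 3 or more passages and were starved during the 24 h that preceded treatment, whereas ATII cells grew to a monolayer over 3 days at the air-liquid interface, so that cell type and culture cannot be told apart. Total RNA was labelled with the dye Cy3 and hybridised to 1-colour Agilent arrays on 2 slides. On both slides, fibroblast vehicle arrays lay in slide columns 1 and 2 and fibroblast BAPN arrays in slide column 3 or 4. All fibroblast arrays lay in slide row 1, and all ATII arrays except vehicle array 1 in slide row 2. Within slide row 2, ATII vehicle arrays lay in slide column 1 on slide 1 and in columns 1 and 2 on slide 2. ATII BAPN arrays lay in slide columns 2, 3 and 4 on slide 1 and in column 3 on slide 2. BAPN in fibroblasts, and almost wholly cell type and BAPN in ATII cells, thus cannot be told apart from place on the slide. A level below is the log2 processed intensity minus that array's 75th percentile over all non-control probes, so that 0 is the 75th percentile, and each gene is represented by its brightest probe. A difference between groups is a difference of such levels, and a gene was called when its limma p, adjusted by the Benjamini-Hochberg method over all features tested, was under 0.05.

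Lysosomes break down proteins, glycans, lipids and glycogen with hydrolases that work at acid pH. The V-ATPase provides that pH: its peripheral V1 sector hydrolyses ATP and turns a ring in the membrane-embedded V0 sector, which carries protons into the lumen. Many genes of this system share the CLEAR element, an E-box bound by TFEB and related factors when lysosome number is adjusted. In the lung, ATII cells store surfactant in lamellar bodies, which are organelles related to lysosomes, and fibroblasts take up and degrade collagen through lysosomes.

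Because the genes of this system are known for a shared promoter element, their promoters were read for its core. RefSeq promoters of the mouse build GRCm38.p6, each 300 bases long and ending 50 bases after the gene start, were matched by symbol for 39 of the 47 genes, with 42 promoters. The letters CACGTG, which read the same on both strands, occurred in 13 of the 42 promoters (31.0%), each of a different gene, and in 7.15% of all 32851 promoters in the table. The longer palindrome TCACGTGA, which contains those letters, occurred in 6 of the 42 (14.3%) and in 0.974% of all promoters. Many genes on which results below turn had no CACGTG in their promoters: Neu1, Lamp2, Cd63, Atp6v0a1, Gm2a, Ppt1, Idua, Lipa, Scarb2, Manba and Hexa. Asah1 and Atp6v1h were not matched. The promoters of 4 of the 13 genes that have the letters are shown with CACGTG in capitals: Dpp7 (chr2:25356283-25356582, minus strand), Sgsh (chr11:119355461-119355760, minus strand), Atp6v1a (chr16:44139210-44139509, minus strand) and Gaa (chr11:119267713-119268012, plus strand).
Dpp7: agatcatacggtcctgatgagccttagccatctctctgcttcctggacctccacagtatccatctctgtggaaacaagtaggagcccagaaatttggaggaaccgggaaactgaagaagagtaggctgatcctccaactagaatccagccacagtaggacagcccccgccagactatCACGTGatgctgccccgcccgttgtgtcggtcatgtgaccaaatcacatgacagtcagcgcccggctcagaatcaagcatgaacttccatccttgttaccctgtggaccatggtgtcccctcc
Sgsh: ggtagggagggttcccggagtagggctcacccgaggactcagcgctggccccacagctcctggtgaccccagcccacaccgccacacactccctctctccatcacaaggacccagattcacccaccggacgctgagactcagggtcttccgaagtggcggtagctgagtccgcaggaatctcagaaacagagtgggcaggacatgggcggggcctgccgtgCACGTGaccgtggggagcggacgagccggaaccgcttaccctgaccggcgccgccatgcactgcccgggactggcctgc
Atp6v1a: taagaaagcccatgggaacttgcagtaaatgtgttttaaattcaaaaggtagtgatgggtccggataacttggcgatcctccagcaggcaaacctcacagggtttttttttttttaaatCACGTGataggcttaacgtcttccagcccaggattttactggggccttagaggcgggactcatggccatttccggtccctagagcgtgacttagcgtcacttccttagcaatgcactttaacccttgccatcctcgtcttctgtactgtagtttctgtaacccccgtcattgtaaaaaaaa
Gaa: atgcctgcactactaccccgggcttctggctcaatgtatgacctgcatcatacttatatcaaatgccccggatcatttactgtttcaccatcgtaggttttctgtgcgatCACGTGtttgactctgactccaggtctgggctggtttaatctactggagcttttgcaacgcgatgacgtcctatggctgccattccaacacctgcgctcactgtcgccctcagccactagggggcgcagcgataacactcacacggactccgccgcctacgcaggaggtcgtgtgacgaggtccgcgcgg

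The 13 genes with CACGTG and the other 26 matched genes had similar medians in each comparison. For the 13 genes the median log2 difference with BAPN was 0.31 in ATII cells, against 0.26 for the genes without the letters. In fibroblasts it was 0.14 for both sets. Between vehicle-treated ATII cells and fibroblasts it was -0.30 with the letters and -0.35 without them. A match of letters describes the window and does not show binding.

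All 47 genes were well above background on all 15 arrays. Over the whole arrays, between 65.2% and 71.2% of spots per array exceeded background clearly, no non-control spot was saturated, and replicates of a group correlated at 0.974 to 0.993 across probes; the number of arrays limits the precision. The 12 epithelial junction and keratin markers were all higher in vehicle-treated ATII cells than in fibroblasts, as were 8 of the 10 tested ATII markers, but Slc34a2, a phosphate transporter of ATII cells, did not exceed background on any of the 15 arrays and Abca3, the lipid transporter of lamellar bodies, gave no call. Of 6 tested alveolar type I markers, 4 were higher in vehicle-treated ATII cells and 1 was lower. Their median difference was 2.42, against 2.05 for the tested ATII markers. The ATII arrays also carried fibroblast genes: of 12 fibroblast markers, 5 were lower in vehicle-treated ATII cells and none was higher, with a median difference of -0.40. Among those with no call, Col1a1, a collagen chain, had a mean level of 7.86 on the ATII vehicle arrays and 7.79 on the fibroblast vehicle arrays. Macrophages are rich in lysosomes, and 15 of 16 macrophage and leukocyte markers were lower in vehicle-treated ATII cells than in fibroblasts, the exception being Cd14, which was higher. The log2 of their summed level was between 5.16 and 5.48 on ATII BAPN arrays, 5.02 and 5.68 on ATII vehicle arrays, 6.63 and 6.87 on fibroblast BAPN arrays, and 6.45 and 6.87 on fibroblast vehicle arrays. Ms4a7 was not well above background on any ATII vehicle array and C1qa and C1qc on 1 of 4 each. Both fibroblast arrays numbered 2 had the highest mean level of these markers in their groups (1.87 with BAPN and 1.92 with vehicle), and their part in the results was not tested beyond leaving these arrays out. In such bulk samples fewer cells of a type and less RNA per cell cannot be told apart.

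Without BAPN, most lysosomal genes that differed between the cell types were lower in ATII cells. Of the 47 genes, 21 (44.7%) were lower in ATII cells than in fibroblasts, against 16.9% of all 32470 features tested, and 4 (8.51%) were higher, against 14.5% of all features. The median log2 difference over the 47 genes was -0.26, against -0.13 over all features and 0.03 over the features with a mean level above 0, the range in which 43 of the 47 genes lay. The largest falls were in the peptidase gene Dpp7 and the ganglioside activator gene Gm2a, both 2.81-fold lower, and the largest rise was in the membrane receptor gene Scarb2, which was 2.01-fold higher. Leaving out both fibroblast arrays numbered 2, which had the most macrophage marker signal, gave 18 genes lower and 4 higher. With slide as a block 22 genes were lower and 4 higher, on slide 1 alone 16 and 1, and on slide 2 alone 10 and 0. The shares of all features lower and higher were 17.1% and 14.4% with slide as a block, 11.8% and 9.93% on slide 1 alone, and 9.02% and 7.01% on slide 2 alone. After a correction for spot position 14 genes were lower and 8 higher, and over all features 5630 were higher and 3889 lower, whereas without it 4696 were higher and 5477 lower.

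**Figure D1:**
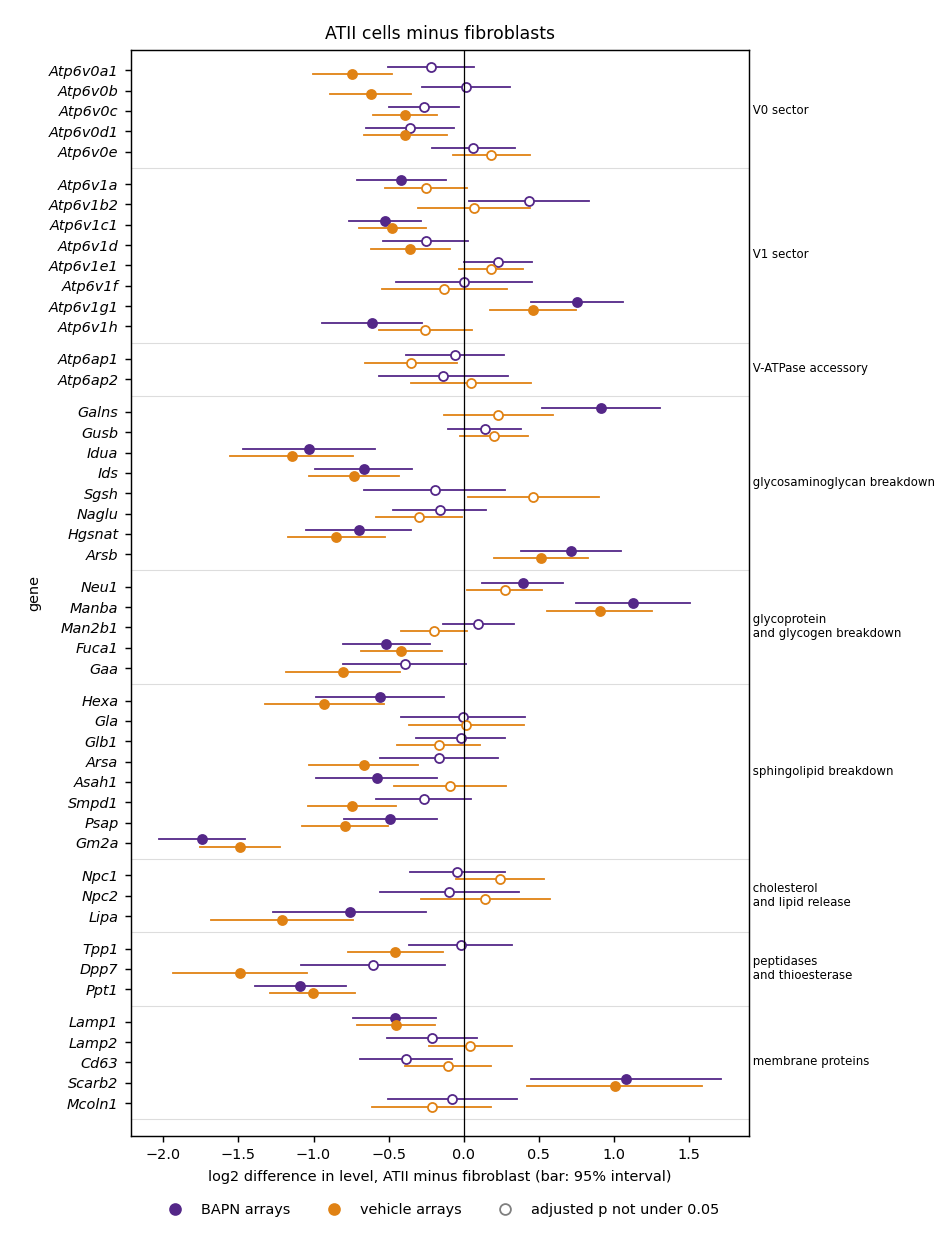
Log2 difference in level, ATII cells minus fibroblasts, for each of the 47 genes grouped by role, on BAPN arrays (purple, 4 ATII and 3 fibroblast arrays) and on vehicle arrays (orange, 4 and 4); bars are 95% intervals and filled points passed the threshold. Filled points lie mostly left of 0, with 21 genes lower on vehicle arrays and 14 on BAPN arrays, and the same 4 genes (Atp6v1g1, Arsb, Manba and Scarb2) stand right of 0 and filled in both.

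Of the 5 V-ATPase genes of the V0 sector, 4 were lower in ATII cells with vehicle and none was called on BAPN arrays. On BAPN arrays 2 of the 5 had an unadjusted limma p under 0.05, as had 12548 of all 32268 features tested. The 4 genes lower with vehicle were Atp6v0a1, whose product forms the proton path (-0.74 ± 0.12, SE), Atp6v0b (-0.62 ± 0.13) and Atp6v0c (-0.39 ± 0.10), whose products belong to the rotating ring, and Atp6v0d1 (-0.39 ± 0.13), whose product couples the ring to the stalk and whose levels overlapped between the groups. Of the 8 V1 genes, Atp6v1c1 (-0.47 ± 0.10) and Atp6v1d (-0.35 ± 0.12) were lower, and Atp6v1g1, which encodes a subunit of the peripheral stalk, was higher. Atp6v1g1 had levels of 5.42, 5.56, 5.41 and 5.85 on the ATII vehicle arrays, against 4.85, 5.15, 5.12 and 5.24 on the fibroblast vehicle arrays. These groups did not overlap, and the difference was 0.46 ± 0.13 (adjusted p = 0.0161, limma), but its adjusted p was 0.0524 without fibroblast vehicle array 1 and 0.0547 without ATII vehicle array 4. Neither accessory gene passed the limma threshold, with -0.35 (adjusted p = 0.0766) for Atp6ap1 and 0.05 (adjusted p = 0.884) for Atp6ap2, the prorenin receptor.

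Among the 8 genes of glycosaminoglycan breakdown, Idua, Ids and Hgsnat were lower in ATII cells and Arsb was higher. Idua, which encodes the iduronidase of heparan and dermatan sulfate breakdown (probe at chr5:109112893-109112952, plus strand, mouse build mm9), had levels of 4.22, 4.72, 4.80 and 4.80 on the ATII vehicle arrays, against 5.58, 5.64, 6.04 and 5.86 on the fibroblast vehicle arrays. Every ATII array lay below every fibroblast array, by -1.15 ± 0.19 in the mean (adjusted p = 0.000379, limma). Hgsnat, which encodes the membrane enzyme that acetylates heparan sulfate during its breakdown, had levels of 2.34, 2.40, 2.23 and 2.63 on the ATII vehicle arrays, against 2.90, 3.50, 3.22 and 3.38 on the fibroblast vehicle arrays. These levels did not overlap and differed by -0.85 ± 0.15 (adjusted p = 0.000661, limma). Arsb, which encodes the sulfatase of dermatan sulfate and lies well below the 75th percentile in all groups, had levels of -2.41, -2.51, -2.42 and -2.11 on the ATII vehicle arrays, against -2.65, -2.94, -2.97 and -2.95 on the fibroblast vehicle arrays. The ATII arrays were the higher ones without overlap, by 0.51 ± 0.14 (adjusted p = 0.0143, limma). The other probe of Arsb gave 0.23 (adjusted p = 0.307, limma).

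Of the 5 genes of glycoprotein and glycogen breakdown, Gaa and Fuca1 were lower in ATII cells and Manba was higher. Gaa, the acid glucosidase of glycogen breakdown (probe at chr11:119146697-119146756, plus strand), had levels of 4.54, 4.77, 4.97 and 5.12 on the ATII vehicle arrays, against 5.56, 5.40, 5.69 and 5.96 on the fibroblast vehicle arrays. The groups did not overlap, and the difference was -0.80 ± 0.18 (adjusted p = 0.00299, limma). Manba, the beta-mannosidase that removes beta-linked mannose from N-glycan fragments, had levels of 1.89, 1.66, 1.74 and 1.65 on the ATII vehicle arrays, against 0.92, 0.42, 0.87 and 1.11 on the fibroblast vehicle arrays. All ATII arrays were above all fibroblast arrays, by 0.91 ± 0.16 (adjusted p = 0.000739, limma).

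Sphingolipid breakdown was the role with most lower calls among those with 8 genes: Hexa, Arsa, Smpd1, Psap and Gm2a were lower in ATII cells, none was higher, and Gla, Glb1 and Asah1 gave no call. Gm2a, the activator that presents gangliosides to beta-hexosaminidase A (probe at chr11:54923856-54923915, plus strand), had levels of -2.28, -2.49, -2.19 and -2.17 on the ATII vehicle arrays, against -0.50, -0.83, -0.93 and -0.92 on the fibroblast vehicle arrays. The gap between the groups was wider than the spread within either, and the difference of -1.49 ± 0.12 had the smallest adjusted p of the 47 genes (8.18e-07, limma). Hexa, the alpha subunit of beta-hexosaminidase A, had levels of 3.28, 3.66, 3.77 and 4.01 on the ATII vehicle arrays, against 4.42, 4.39, 4.50 and 5.11 on the fibroblast vehicle arrays. The groups did not overlap and differed by -0.93 ± 0.18 (adjusted p = 0.00147, limma). Psap, the precursor of the saposin activators, and Smpd1, the acid sphingomyelinase, differed by -0.79 ± 0.13 and -0.74 ± 0.14.

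Lipid release and protein turnover showed the same direction where calls were made. Lipa, the acid lipase that frees cholesterol and fatty acids from lipoprotein esters, had levels of 0.03, 0.08, 0.37 and 0.57 on the ATII vehicle arrays, against 1.06, 1.73, 1.37 and 1.74 on the fibroblast vehicle arrays. The ATII arrays were all lower, by -1.21 ± 0.22 (adjusted p = 0.000773, limma), while the cholesterol exporters Npc1 (0.24) and Npc2 (0.14) gave no call. All 3 peptidase and thioesterase genes were lower in ATII cells, the smallest difference being that of the tripeptidyl peptidase gene Tpp1 (-0.45 ± 0.15, adjusted p = 0.0303, limma). Dpp7, a dipeptidyl peptidase that cuts after proline (probe at chr2:25207942-25208001, minus strand), had levels of 1.45, 1.59, 1.71 and 2.14 on the ATII vehicle arrays, against 3.01, 3.25, 3.28 and 3.31 on the fibroblast vehicle arrays. Ppt1, the thioesterase that removes palmitate from proteins, had levels of 0.34, 0.25, 0.32 and 0.45 on the ATII vehicle arrays, against 1.33, 1.44, 1.32 and 1.30 on the fibroblast vehicle arrays. Neither gene overlapped between the groups, with differences of -1.49 ± 0.21 for Dpp7 (adjusted p = 8.84e-05) and -1.01 ± 0.13 for Ppt1 (adjusted p = 4.86e-05, limma).

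Of the 5 membrane protein genes, Lamp1, the most abundant kind of glycoprotein of the lysosomal membrane, was lower in ATII cells (-0.45 ± 0.12, adjusted p = 0.0104, limma) and Scarb2 was higher. Scarb2, also called LIMP-2, carries glucocerebrosidase to the lysosome. It had levels of 2.75, 3.39, 3.27 and 3.79 on the ATII vehicle arrays, against 2.61, 2.00, 1.86 and 2.71 on the fibroblast vehicle arrays. The lowest ATII array lay just above the highest fibroblast array, and the difference was 1.01 ± 0.27 (adjusted p = 0.0115, limma). Lamp2 (0.04), the tetraspanin gene Cd63 (-0.10) and the calcium channel gene Mcoln1 (-0.21) gave no call.

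**Figure D2:**
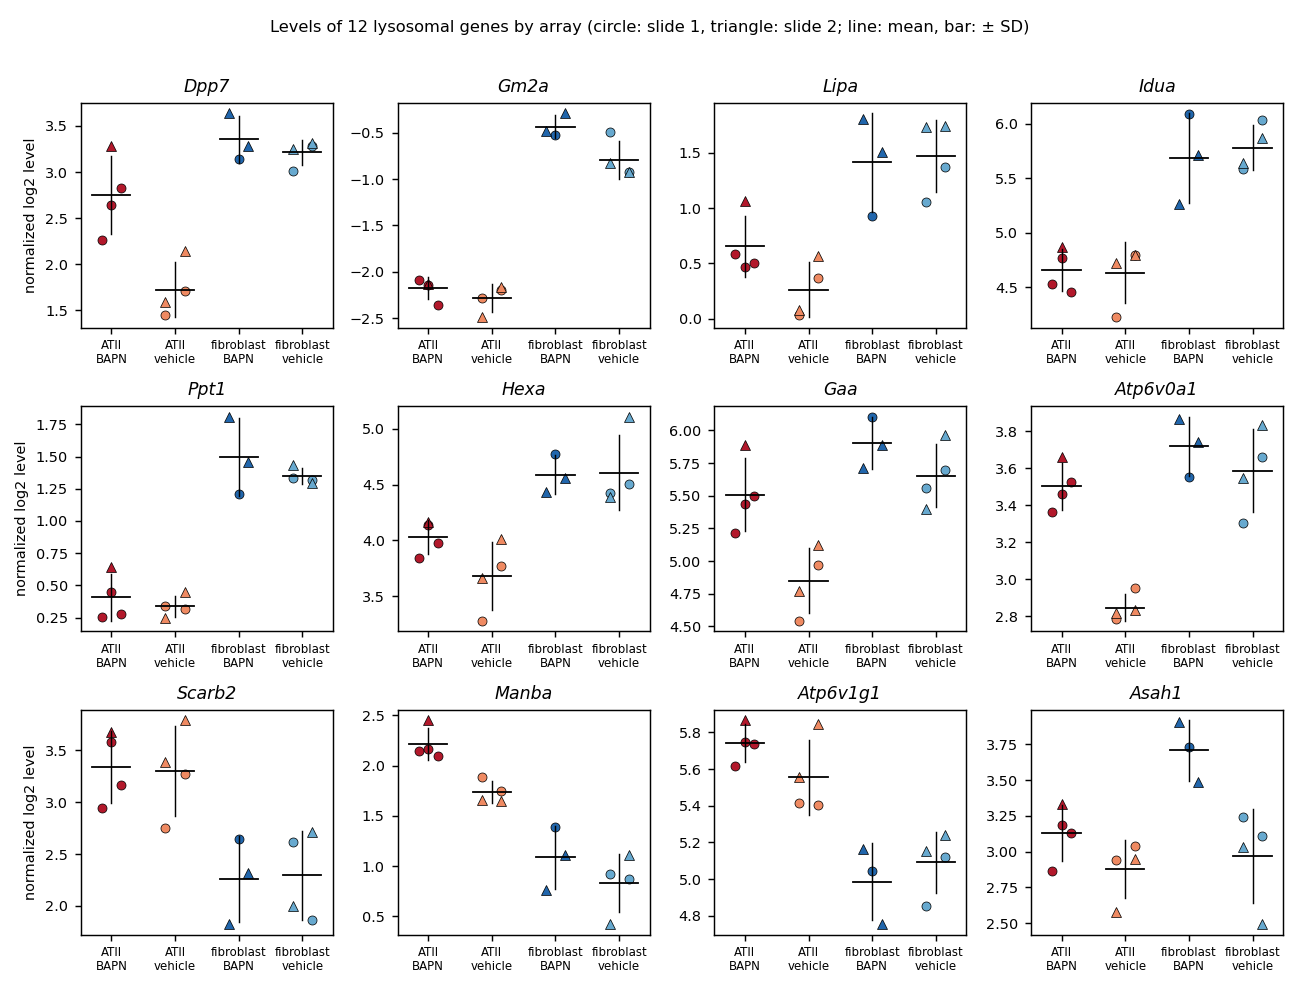
Normalized log2 level of 12 of the 47 genes on each array (circles slide 1, triangles slide 2) in the 4 groups, with the group mean as a line and the SD as a bar; each panel has its own scale, and 0 is the array's 75th percentile. The ATII vehicle arrays sit below the fibroblast vehicle arrays for Dpp7, Gm2a, Lipa, Idua, Ppt1, Hexa, Gaa and Atp6v0a1, above them for Scarb2, Manba and Atp6v1g1, and among them for Asah1.

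The same comparison on the BAPN arrays, which shares no array with the one above, gave fewer falls. With BAPN, 14 of the 47 genes were lower in ATII cells than in fibroblasts, against 15.9% of 32268 features tested, and 6 were higher, against 13.4% of features, with a median log2 difference of -0.19 over the 47 genes and 0.01 over all features. Of the 21 genes lower on vehicle arrays, 11 were also lower on BAPN arrays, all 4 higher genes were higher on both, and no gene was called in opposite directions. The count of lower genes rested on single arrays: it was 9 without fibroblast BAPN array 2, without ATII BAPN array 3 or without ATII BAPN array 5, and 19 without ATII BAPN array 4. It was 9 without both fibroblast arrays numbered 2, with 4 genes higher. With slide as a block 12 genes were lower and 7 higher, on slide 1 alone 16 and 4, and on slide 2 alone 1 and 0. On slide 2 alone the median difference over the 47 genes was 0.07, with 27 of them above 0, against 13 above 0 on both slides together. With replicate number as a block, which rests on 2 pairs here, 7 genes were lower and 5 higher, against 12.2% and 9.07% of all features.

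Gm2a and Ppt1 stood farthest below the fibroblasts. Gm2a had levels of -2.09, -2.14, -2.13 and -2.36 on the ATII BAPN arrays, against -0.53, -0.48 and -0.29 on the fibroblast BAPN arrays, a difference of -1.74 ± 0.13 (adjusted p = 4.55e-07, limma). Ppt1 had levels of 0.25, 0.45, 0.65 and 0.28 on the ATII BAPN arrays, against 1.21, 1.81 and 1.46 on the fibroblast BAPN arrays, a difference of -1.09 ± 0.14 (adjusted p = 5.58e-05, limma). Neither gene overlapped between the cell types. Idua had levels of 4.53, 4.77, 4.87 and 4.46 on the ATII BAPN arrays, against 6.09, 5.26 and 5.71 on the fibroblast BAPN arrays, a difference of -1.03 ± 0.20 (adjusted p = 0.00178, limma). Hgsnat had levels of 2.40, 2.43, 2.54 and 2.30 on the ATII BAPN arrays, against 2.95, 3.42 and 2.97 on the fibroblast BAPN arrays, a difference of -0.70 ± 0.16 (adjusted p = 0.00515, limma). Both genes were lower on every ATII array. Ids, the iduronate sulfatase, had levels of -0.74, -0.59, -0.56 and -0.57 on the ATII BAPN arrays, against 0.19, 0.07 and -0.11 on the fibroblast BAPN arrays, and was lower by -0.67 ± 0.15 without overlap (adjusted p = 0.00398, limma).

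Lipa, Asah1 and Atp6v1h were also lower, and the calls of Lipa and Asah1 rested on single arrays. Lipa had levels of 0.59, 0.47, 1.06 and 0.50 on the ATII BAPN arrays, against 0.93, 1.80 and 1.51 on the fibroblast BAPN arrays. The groups overlapped, and the difference of -0.76 ± 0.24 (adjusted p = 0.0273, limma) lost its call without any of fibroblast BAPN arrays 2 and 4 and ATII BAPN arrays 1, 3 and 5 (adjusted p = 0.0585 to 0.132). Asah1, the acid ceramidase, had levels of 2.87, 3.19, 3.33 and 3.13 on the ATII BAPN arrays, against 3.73, 3.91 and 3.49 on the fibroblast BAPN arrays. These did not overlap, and the difference was -0.58 ± 0.19 (adjusted p = 0.0315, limma), with the call lost without fibroblast BAPN arrays 1 or 2 or ATII BAPN arrays 1, 3 or 5 (adjusted p = 0.0502 to 0.125). Atp6v1h, a regulatory subunit of the V1 sector, had levels of 1.75, 2.15, 2.13 and 2.17 on the ATII BAPN arrays, against 2.67, 2.72 and 2.60 on the fibroblast BAPN arrays. It was lower on every ATII array, by -0.61 ± 0.15 (adjusted p = 0.00862, limma). Dpp7, with the largest fall on vehicle arrays, differed by -0.60 ± 0.22 on BAPN arrays (adjusted p = 0.0585, limma).

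The genes higher in ATII cells on BAPN arrays were Manba, Scarb2, Galns, Atp6v1g1, Arsb and Neu1. Manba had levels of 2.14, 2.16, 2.46 and 2.10 on the ATII BAPN arrays, against 1.39, 0.77 and 1.11 on the fibroblast BAPN arrays, a difference of 1.13 ± 0.18 (adjusted p = 0.000277, limma). Galns, the sulfatase of keratan and chondroitin sulfate, had levels of 2.60, 2.16, 2.50 and 2.49 on the ATII BAPN arrays, against 1.41, 1.71 and 1.46 on the fibroblast BAPN arrays, a difference of 0.91 ± 0.18 (adjusted p = 0.00184, limma). Neither gene overlapped between the cell types. Scarb2 had levels of 2.94, 3.58, 3.68 and 3.16 on the ATII BAPN arrays, against 2.64, 1.82 and 2.32 on the fibroblast BAPN arrays, and differed by 1.08 ± 0.29 (adjusted p = 0.0131, limma, but 0.069 without fibroblast BAPN array 2). Atp6v1g1 had levels of 5.62, 5.75, 5.87 and 5.74 on the ATII BAPN arrays, against 5.04, 5.16 and 4.75 on the fibroblast BAPN arrays, a difference of 0.76 ± 0.14 (adjusted p = 0.00126, limma). In both genes every ATII array was above every fibroblast array. Arsb had levels of -2.39, -2.22, -2.76 and -2.42 on the ATII BAPN arrays, against -2.98, -3.41 and -3.09 on the fibroblast BAPN arrays, a difference of 0.71 ± 0.16 (adjusted p = 0.00335, limma). Neu1, the sialidase that trims sialic acid from glycoproteins, had levels of 3.75, 3.86, 4.22 and 3.85 on the ATII BAPN arrays, against 3.57, 3.51 and 3.50 on the fibroblast BAPN arrays, a difference of 0.39 ± 0.12 (adjusted p = 0.0289, limma). Both genes were higher on every ATII array, but the call of Neu1 was lost without fibroblast BAPN arrays 2 or 4 or ATII BAPN array 4 (limma adjusted p = 0.0541 to 0.0811).

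In fibroblasts, 7 of the 47 genes were higher with BAPN and none was lower: Sgsh, Asah1, Lamp2, Atp6v1h, Cd63, Atp6v1a and Neu1. The BAPN and vehicle arrays compared here also differed in slide column. The shares over all 32255 features tested were 2.36% higher and 11.1% lower. An unadjusted limma p under 0.05 in either direction was found for 13 of the 47 genes and for 8744 of those features, a similar share. The rises were small, from 1.35-fold for Neu1 to 1.81-fold for Sgsh, and the median log2 difference over the 47 genes was 0.14, with 30 of them above 0, against 52.4% of all features and 63.5% of the features with a mean level above 0. That median was 0.05 with quantile normalization, 0.05 with the series table and 0.03 on slide 2 alone, with 26 genes above 0 in each. The count of 7 was not stable. It lay between 1 and 5 when single fibroblast arrays were left out, with 1 gene left without vehicle array 2, vehicle array 4 or BAPN array 2 and 3 without BAPN array 1 or BAPN array 4. It was 0 when both arrays numbered 2 were left out and 0 when the fit held only the fibroblast arrays, with 6 genes with slide as a block, 2 on slide 1 alone, 1 on slide 2 alone and 16 after a correction for spot position.

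Sgsh, the sulfamidase of heparan sulfate breakdown (probe at chr11:119204865-119204924, minus strand), showed the largest rise, with levels of 5.79, 4.64 and 4.77 on the fibroblast BAPN arrays, against 4.35, 4.12, 4.13 and 4.21 on the fibroblast vehicle arrays. The groups did not overlap, but BAPN array 1 stood more than a log2 unit above the others: the difference was 0.86 ± 0.22 (adjusted p = 0.0228, limma) and 0.50 without that array (adjusted p = 0.0218, limma). The other probe of Sgsh gave 0.05 ± 0.26 (adjusted p = 0.933, limma). Asah1 had levels of 3.73, 3.91 and 3.49 on the fibroblast BAPN arrays, against 3.24, 3.03, 3.11 and 2.49 on the fibroblast vehicle arrays. Every BAPN array was above every vehicle array, by 0.74 ± 0.19 (adjusted p = 0.0225, limma), while the other probe of the gene gave 0.46 ± 0.16 (adjusted p = 0.0854, limma). Lamp2, a membrane glycoprotein needed for autophagosomes to fuse with lysosomes, had levels of 4.65, 4.82 and 4.61 on the fibroblast BAPN arrays, against 4.25, 4.16, 4.13 and 3.92 on the fibroblast vehicle arrays. These were apart by 0.58 ± 0.14 (adjusted p = 0.0187, limma), but the other Lamp2 probe gave -0.03 ± 0.15 (adjusted p = 0.934, limma). Leaving out single fibroblast arrays ended the call of Sgsh without vehicle array 2 or 4 (limma adjusted p = 0.0591 and 0.0527). It ended that of Asah1 without vehicle array 2 or 4 or BAPN array 2 (limma adjusted p = 0.0507, 0.0506 and 0.0919), and that of Lamp2 without BAPN array 2 (limma adjusted p = 0.0765).

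Both V-ATPase genes that rose belong to the V1 sector. Atp6v1h had levels of 2.67, 2.72 and 2.60 on the fibroblast BAPN arrays, against 2.41, 2.08, 2.35 and 1.79 on the fibroblast vehicle arrays, a difference of 0.50 ± 0.15 (adjusted p = 0.0473, limma). Atp6v1a, the subunit that hydrolyses ATP (probe at chr16:44085826-44085885, minus strand), had levels of 4.68, 4.80 and 4.53 on the fibroblast BAPN arrays, against 4.18, 4.26, 4.32 and 4.03 on the fibroblast vehicle arrays, a difference of 0.47 ± 0.14 (adjusted p = 0.0385, limma). Neither gene overlapped between the groups, and the other Atp6v1a probe gave 0.42 ± 0.15 (adjusted p = 0.0885, limma). The call of Atp6v1a was lost without any fibroblast array except vehicle array 3 (limma adjusted p = 0.0577 to 0.136), and that of Atp6v1h without any except vehicle arrays 1 and 3 (limma adjusted p = 0.0873 to 0.133). Cd63, a tetraspanin of late endosomes and lysosomes, had levels of 8.49, 8.36 and 8.30 on the fibroblast BAPN arrays, against 7.89, 7.80, 7.94 and 7.99 on the fibroblast vehicle arrays, a difference of 0.47 ± 0.14 (adjusted p = 0.0435, limma). Neu1 had levels of 3.57, 3.51 and 3.50 on the fibroblast BAPN arrays, against 3.10, 3.00, 3.12 and 3.15 on the fibroblast vehicle arrays, a difference of 0.43 ± 0.12 (adjusted p = 0.0349, limma). In both genes the BAPN arrays were tightly grouped and all above the vehicle arrays, yet each call was lost whenever any fibroblast array was left out (limma adjusted p = 0.0651 to 0.116 for Cd63 and 0.0575 to 0.0905 for Neu1).

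The position of the spot on the array moved with these values. All 7 genes that rose were spotted on the right side of the array, where 27 of the 47 genes lie, with 19 on the left side and Gusb on both. The median BAPN difference in fibroblasts was 0.31 for the 27 genes on the right and -0.04 for the 19 on the left. Over all features it ran the other way, with -0.08 on the right and 0.08 on the left. Over all features, 4.09% on the right were higher and 21.3% lower with BAPN in fibroblasts, against 0.603% and 0.879% on the left. After the correction for spot position no call of the 7 was lost, and over all features 2653 were higher and 2377 lower, whereas without it 762 were higher and 3569 lower. Whether position accounts for the rises was not tested.

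**Figure D3:**
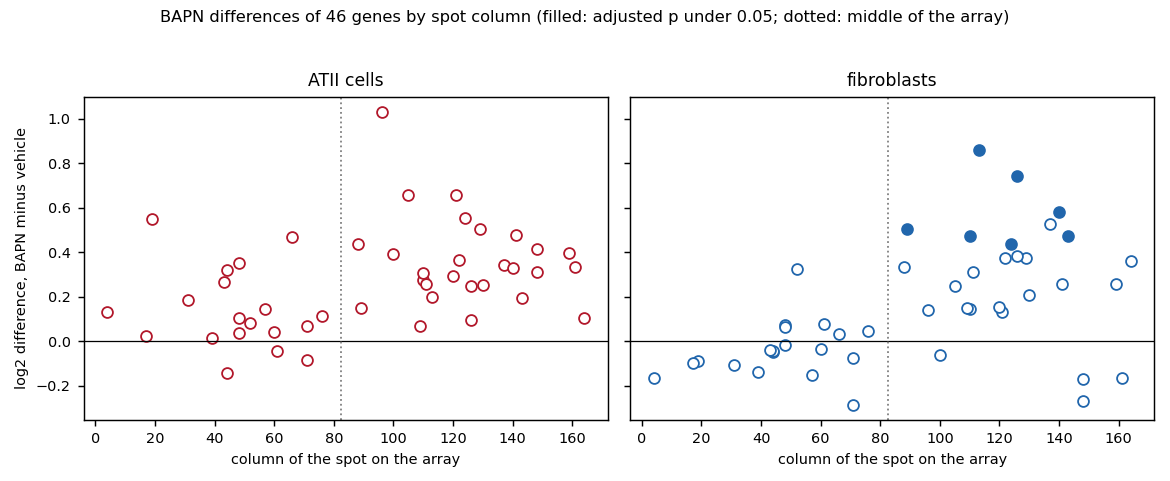
Log2 BAPN difference of the 46 genes spotted on only 1 side of the array, by the column of the spot, in ATII cells (left panel) and fibroblasts (right panel); filled points passed the threshold and the dotted line is the middle of the array. In fibroblasts all 7 filled points lie right of the middle, and in ATII cells the median is 0.33 on the right and 0.10 on the left. Over all features the ATII median is -0.06 on the right and 0.06 on the left.

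In ATII cells no lysosomal gene passed the threshold with BAPN, but nearly all differences pointed up. Apart from vehicle array 1 in slide row 1, the vehicle arrays lay in lower slide columns than the BAPN arrays of the same slide. The share called over all 32045 features tested was 0%, with 3335 features and 18 of the 47 genes at an unadjusted limma p under 0.05. Of the 47 genes, 44 had a difference above 0, all except Atp6v0e, Fuca1 and Arsb, against 49.9% of all features and 51.0% of the features with a mean level above 0. Their median log2 difference was 0.26, against 0.00 over all features. In 15 of the 47 genes every BAPN array was above every vehicle array, against 3.44% of all features, and in none was every BAPN array below, against 5.66% of all features. The 44 became 39 to 45 when single ATII arrays were left out, 45 on slide 1 alone and 37 after the correction for spot position. On slide 2 alone, where BAPN array 4 was the only ATII BAPN array, the count was 43.

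**Figure D4:**
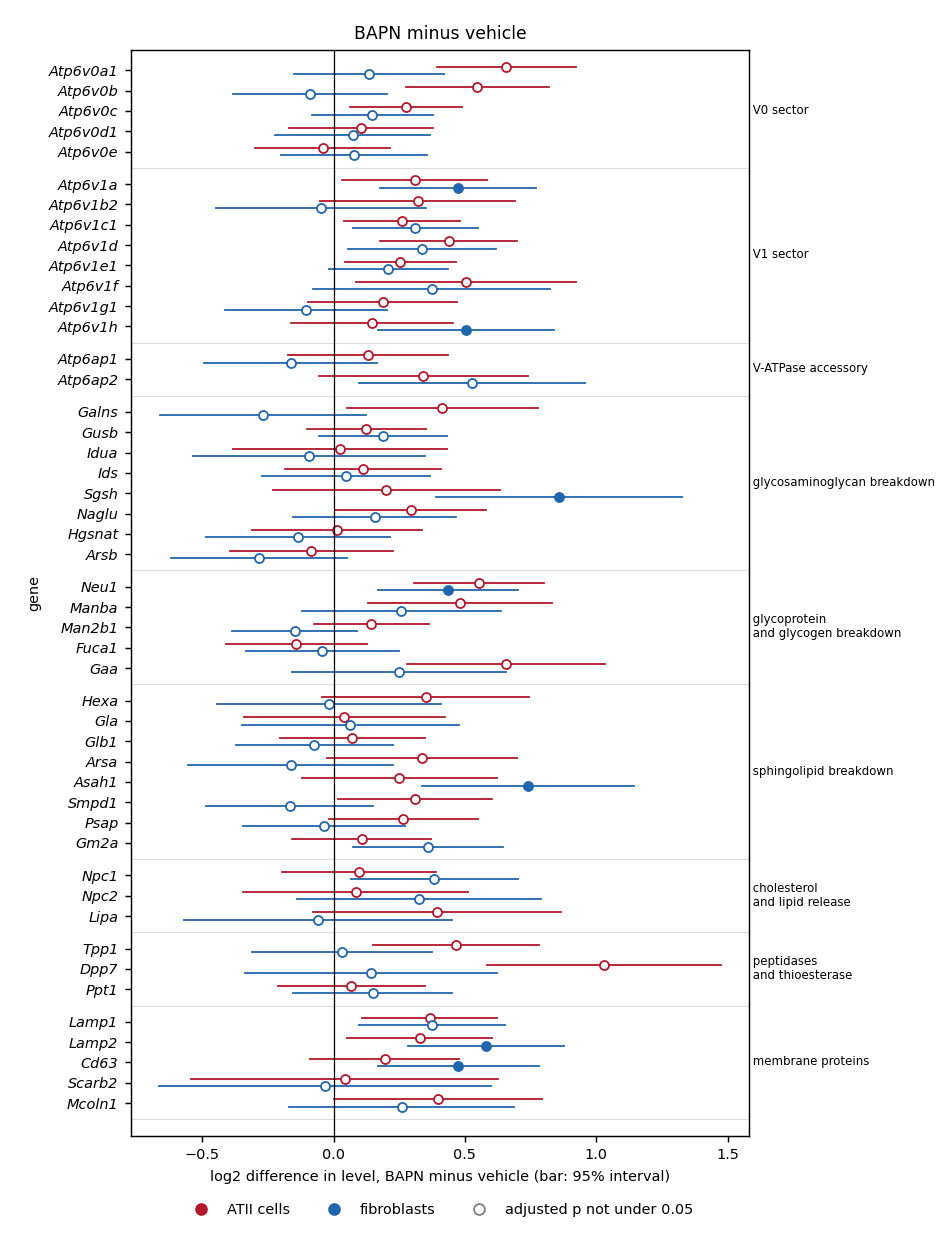
Log2 difference in level, BAPN minus vehicle, for each of the 47 genes grouped by role, in ATII cells (red, 4 BAPN and 4 vehicle arrays) and fibroblasts (blue, 3 and 4); bars are 95% intervals and filled points passed the threshold. In ATII cells 44 points lie right of 0 and none is filled, and in fibroblasts 30 lie right of 0 and 7 are filled.

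The 3 genes with the smallest p were Atp6v0a1, Dpp7 and Neu1, and all had an adjusted p of 0.463 (limma). Atp6v0a1 (probe at chr11:100924969-100925028, plus strand) had levels of 3.36, 3.46, 3.66 and 3.53 on the ATII BAPN arrays, against 2.79, 2.81, 2.95 and 2.83 on the ATII vehicle arrays, a difference of 0.66 ± 0.12. Its other probe gave 0.63 ± 0.27. Dpp7 had levels of 2.26, 2.64, 3.28 and 2.83 on the ATII BAPN arrays, against 1.45, 1.59, 1.71 and 2.14 on the ATII vehicle arrays, a difference of 1.03 ± 0.21. It was the largest of the 47 differences, and it passed the threshold in no fit that held more than 1 ATII BAPN array. On slide 2 alone, where BAPN array 4 was the only ATII BAPN array, it was 1.41. Neu1 (probe at chr17:35072105-35072164, plus strand) had levels of 3.75, 3.86, 4.22 and 3.85 on the ATII BAPN arrays, against 3.34, 3.17, 3.38 and 3.55 on the ATII vehicle arrays, a difference of 0.55 ± 0.11. In all 3 genes the lowest BAPN array was above the highest vehicle array.

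By role, the values above 0 were spread over the whole system. All 8 V1 genes were above 0, with a median of 0.28, as were 4 of 5 V0 genes, with a median of 0.27, and both accessory genes. All 8 genes of sphingolipid breakdown were above 0 (median 0.26), as were 7 of 8 of glycosaminoglycan breakdown (0.12), 4 of 5 of glycoprotein and glycogen breakdown (0.48), all 3 of lipid release (0.10), all 3 peptidases and thioesterase (0.47) and all 5 membrane protein genes (0.33). Gaa differed by 0.66 ± 0.17, but its other probes gave 0.34 and -0.52, the largest disagreement among the 13 other probes in this comparison. The mean level of all 47 genes was 3.26, 3.42, 3.61 and 3.40 on the ATII BAPN arrays, against 3.03, 3.10, 3.18 and 3.32 on the ATII vehicle arrays. Vehicle array 4 thus lay above BAPN array 1, and the groups overlapped in this mean. In fibroblasts the mean was 3.63, 3.62 and 3.54 on the BAPN arrays, against 3.38, 3.41, 3.43 and 3.55 on the vehicle arrays, and BAPN array 4 was a little below vehicle array 4. None of the 13 tested macrophage markers was called with BAPN in ATII cells, but neither was any other of the 32045 features tested. The mean level of all 16 markers was between -2.26 and -1.84 on ATII BAPN arrays and between -2.27 and -1.61 on ATII vehicle arrays.

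**Figure D5:**
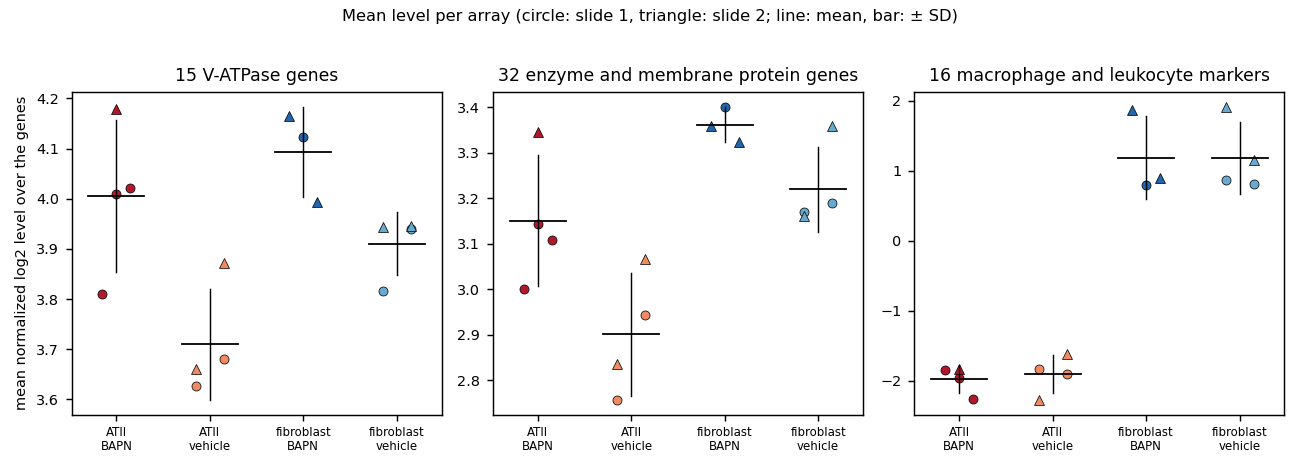
Mean normalized log2 level per array over the 15 V-ATPase genes, the 32 enzyme and membrane protein genes and the 16 macrophage and leukocyte markers, in the 4 groups (circles slide 1, triangles slide 2, line mean, bar SD). The ATII vehicle group has the lowest mean of the V-ATPase genes (3.71) and of the enzyme and membrane protein genes (2.90), and the macrophage markers lie between -2.27 and -1.61 on all ATII arrays and between 0.80 and 1.92 on all fibroblast arrays.

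The effect of BAPN was not shown to differ between the cell types for any lysosomal gene. The share called over all 34287 features in the test of the difference was 0%, with 4723 features and 6 of the 47 genes at an unadjusted limma p under 0.05. The smallest adjusted p was that of Atp6v0b, whose BAPN effect was larger in ATII cells than in fibroblasts by 0.64 (0.55 in ATII cells and -0.09 in fibroblasts, adjusted p = 0.201, limma). It was followed by Dpp7, by 0.89 (1.03 and 0.14, adjusted p = 0.247), and Atp6v0a1, by 0.52 (0.66 and 0.13, adjusted p = 0.250, limma). Of the 47 genes, 44 had a value above 0 in ATII cells, 30 in fibroblasts and 29 in both. Nearly all of this overlap follows from the first 2 counts, and the share of all features above 0 in both was not computed. In each cell type 45 of the 47 genes had a 95% interval of the BAPN effect inside a 2-fold change in either direction, the exceptions being Dpp7 and Gaa in ATII cells and Sgsh and Asah1 in fibroblasts.

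Genes around this system were read from further lists. Of 26 further lysosomal enzyme and membrane protein genes, 11 were lower and 2 higher in vehicle-treated ATII cells: the acid phosphatase gene Acp5 was higher (2.40 ± 0.31), and the phospholipase gene Pla2g15 (-1.87 ± 0.21), the peptide transporter gene Abcb9 (-1.60 ± 0.13) and the sialic acid exporter gene Slc17a5 (-1.33 ± 0.17) were lower. With BAPN, 23 of these 26 genes were above 0 in ATII cells, with a median of 0.25 and no call, and 13 were above 0 in fibroblasts, also with no call. Of 9 tested alternative V-ATPase isoforms, Atp6v0a2 was lower in vehicle-treated ATII cells (-0.32 ± 0.11, adjusted p = 0.0473, limma) and Atp6v1c2 was higher (adjusted p = 3.88e-10, limma). The mean levels of Atp6v1c2 were -0.15 on the ATII vehicle arrays and -7.27 on the fibroblast vehicle arrays, where it did not exceed background. Set against the lowest signal well above background on the fibroblast arrays, its level was higher by at least 31.6-fold in ATII cells. Of 9 genes that tag enzymes with phosphorylated mannose or sort them, Gnptab, a subunit of the tagging transferase (0.80 ± 0.19), and Igf2r, the larger receptor for the tag (0.59 ± 0.12), were higher in ATII cells and none was lower. Of 17 genes for TFEB-family factors and mTORC1 control at the lysosome, 6 were lower in ATII cells and 1 higher: Tfec, which did not exceed background on the ATII vehicle arrays, was at least 7.48-fold lower (mean levels -7.24 on the ATII vehicle arrays and -2.71 on the fibroblast vehicle arrays, adjusted p = 5.04e-07, limma), and Mitf was lower by -0.92 ± 0.14. Tfeb itself differed by 0.05 (adjusted p = 0.887, limma). In ATII cells with BAPN, 15 of the 16 tested genes of this list were above 0, with no call.

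Probes of the same gene did not always give the same sign. The 13 genes with more than 1 probe had 13 further probes that were kept, of which 3 had the opposite sign to the brightest probe in the cell type comparison on vehicle arrays, 2 in that on BAPN arrays, 4 in the BAPN comparison in fibroblasts and 2 in that in ATII cells. Sgsh was the widest case: between vehicle-treated ATII cells and fibroblasts its brightest probe gave 0.46 ± 0.20 (adjusted p = 0.102) and its other probe -1.80 ± 0.24 (adjusted p = 5.72e-05, limma). Fuca1, the fucosidase gene, gave -0.04 with BAPN in fibroblasts on its brightest probe and -0.89 ± 0.25 on the other (adjusted p = 0.0358, limma). Which transcripts each probe detects was not tested.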

How the data were processed

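Each sample was hybridised to a 1-colour Agilent array. The authors' scanner files give the processed intensity of every spot, which Agilent Feature Extraction (version 10.7.3.1) had corrected for background and for trends across the array, per the file headers; arrays were not scaled to each other at that step. Probe positions refer to mouse build mm9, per the file headers. A log2 table that the authors deposited for the whole series, quantile-normalized as its values show (r of at least 0.9995 with each array's own log2 intensity), served as an alternative. The members and all gene lists were chosen with earlier results of these data known.

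The processed intensity of each spot was put on the log2 scale and reduced by the array's 75th percentile over non-control probes. Spots flagged as outliers were left out, and the others were averaged per probe. Of the 55681 probes, the 55212 with a value on every array were kept. A gene was represented by its probe with the highest mean, and unnamed probes stood for themselves. Testing was limited to features with 3 or more arrays well above background among the groups set against each other. The model, fitted with limma (version 3.58.1, R version 4.3.3), held 1 mean per group over 15 arrays and left 11 residual degrees of freedom. Two-sided p-values were adjusted by the Benjamini-Hochberg method over all features tested, with a threshold of 0.05. Intervals are 95% and errors are standard errors unless called SD. The scripts were tested on simulated data. The number of arrays limits the precision.

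Per-array values are given for up to 8 called members with the largest rise and 8 with the largest fall in each cell type comparison, for up to 8 called members in each BAPN comparison, or, where none was called, for the 3 with the smallest p. Of the other lists, up to 4 examples are named. The slides are those of the file headers. The spot position correction subtracted, per array, a running median of the deviations over columns and rows. ATII and fibroblast vehicle arrays of the same number had correlations of deviations of 0.23, 0.24, 0.31 and 0.33. Each such pair also shares a slide, and arrays of unequal number were not compared between the cell types. These values therefore cannot tell a pairing from a slide. The replicate block took the numbers as pairs, with no other source for the pairing. The series text speaks of 4 BAPN samples, and number 3 of the fibroblast BAPN samples is not analysed here. The authors' own test is not given in the sources used here.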

Additional observations from a re-analysis of the deposited data

Results flagged for a closer look

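In 11 of the 141 groups of 4 arrays tested (47 genes in each of 3 groups), the highest or the lowest array stood farther from its nearest neighbour, relative to the group's range, than Dixon's 95% critical value for 4 values allows. Chance gives about 1 in 20 such groups. No explanation of these values was weighed.

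Among ATII BAPN arrays, array 1 was lowest for Atp6v1h (ratio 0.923, level 1.75 against 2.13 to 2.17 on the others), for Ids (0.832, -0.74 against -0.59 to -0.56) and for Npc2 (0.831, 4.94 against 5.40 to 5.49). In the same group array 4 was highest for Manba (0.8292, 2.46 against 2.10 to 2.16) and for Lamp1 (0.921, 7.81 against 7.38 to 7.41). Among ATII vehicle arrays, array 3 was lowest for Galns (0.931, 1.93 against 2.05 to 2.06) and array 1 for Idua (0.859, 4.22 against 4.72 to 4.80). Among fibroblast vehicle arrays, array 4 was lowest for Atp6ap2 (0.848, 2.38 against 2.69 to 2.74) and for Npc1 (0.904, -0.17 against 0.16 to 0.19) and highest for Hexa (0.843, 5.11 against 4.39 to 4.50), and array 1 was highest for Arsb (0.927, -2.65 against -2.97 to -2.94).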

How the results depend on the processing

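The 47 genes' differences were refitted under up to 29 alternatives each, and no called gene changed sign under any of them. Of the 855 refits of single named genes, 712 stayed on the same side of the threshold, 142 lost the call, 1 gained it and 0 reversed. Of 270 refits of counts, 241 stayed within 1.5 times the reported count. Many of these are counts of 0, mostly from comparisons in which no feature at all was called in the reported fit, and had little room to move. Others are counts of genes above 0, which cannot exceed 47. The 241 therefore does not measure how stable the other counts of called genes were. Without BAPN, the count of genes higher in ATII cells was 1 on slide 1 alone, 0 on slide 2 alone and 8 after the spot position correction, and the count lower was 10 on slide 2 alone. Leaving out single arrays gave 3 to 6 higher and 17 to 21 lower. On BAPN arrays, the fit of only the groups compared gave 9 lower, and leaving out both fibroblast arrays numbered 2, an alternative chosen after seeing the data, gave 9 lower. Leaving out single arrays gave 4 to 7 higher and 9 to 19 lower. With BAPN in fibroblasts, the count higher was 4 with normexp background correction (1.34% of all features), 1 with quantile normalization (1.90%) and 1 with the series table (1.87%). It was 3 without a filter on dim probes, 4 with the mean of a gene's probes, 1 on slide 2 alone (6.51%) and 16 after the spot position correction (8.2%). It was 0 in the fit of only the groups compared and 0 without both arrays numbered 2. Leaving out single fibroblast arrays gave 1 to 5 higher. In ATII cells with BAPN, no alternative with more than 1 array in each group gave a call. Slide 1 alone held a single fibroblast BAPN array and slide 2 alone a single ATII BAPN array. Calls are not listed here for fits that rest on them. Single slides and fits of fewer arrays hold fewer residual degrees of freedom; for the other settings the cause was not tested.

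In the fit with replicate number as a block, fibroblasts with BAPN had 0 genes higher, and over all features 0 were called in either direction. BAPN and vehicle arrays of the same number had correlations of deviations of -0.08, 0.10 and -0.04 in fibroblasts and 0.23, -0.15 and -0.15 in ATII cells. Those of unequal number lay between -0.38 and 0.28 in fibroblasts and between -0.25 and 0.30 in ATII cells. These values do not show whether arrays of the same number form pairs. On BAPN arrays, where only 2 pairs exist (correlations 0.16 and 0.23), the replicate block gave 7 genes lower in ATII cells and 5 higher. On vehicle arrays it gave 20 lower and 4 higher. Over all features, the count lower with BAPN in fibroblasts was 3569 in the reported fit, 2297 in the fit of only the fibroblast arrays and 2 without both arrays numbered 2, and the count higher was 762, 59 and 0.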
